A study of Mus musculus with 8 samples.

Results

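The Wnt ligand genes described here are Wnt2, Wnt4, Wnt5a, Wnt5b, Wnt6, Wnt7b, Wnt9a, Wnt10a and Wnt11, together with the R-spondin gene Rspo1. The rule takes them by gene symbol. These 10 genes have 18 of the 45101 probe sets on the Affymetrix mouse arrays and are 10 of the 18194 genes with a probe set of their own. Where a gene had several probe sets, the one with the highest average signal led, and the others served to check it.

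The series asked which signalling pathways the transcription factor C/EBPb (gene Cebpb) regulates in mammary stem and progenitor cells. Mammary epithelial cells of wildtype (WT) mice and of mice lacking C/EBPb in the germline (C/EBPb-/-, KO below) were sorted by FACS on the lineage cocktail LIN, CD24 and CD29. The 4 groups were WT LIN-CD24+CD29hi, KO LIN-CD24+CD29hi, WT LIN-CD24hiCD29lo and KO LIN-CD24hiCD29lo cells, called CD29hi and CD29lo below, with 2 arrays each. The glands came as 2 paired sets, with 10 mice per group, so each array stands for pooled animals. The loss was germline, so the surrounding stroma and the whole animal lacked C/EBPb as well as the sorted cells. The sources used here do not give the age or strain of the mice, the deleted part of Cebpb or the mice behind each array. The labels call the replicates biological. P-values measure the spread between these arrays.

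Wnt ligands are secreted, lipid-modified glycoproteins that bind Frizzled receptors. With the co-receptors Lrp5 or Lrp6 they stabilise beta-catenin, while ligands such as Wnt5a and Wnt11 mostly signal without it. R-spondins bind Lgr receptors and keep the ubiquitin ligases Rnf43 and Znrf3 from removing Frizzled proteins, which raises the response to Wnt. In the mammary gland Wnt4 acts downstream of progesterone in side branching, Wnt5a restrains branching, and Wnt signals maintain basal cells with stem cell activity.

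Because the knockout removes a transcription factor, the promoter sequences of the members were searched for the loose C/EBP consensus TTNNGNAA on both strands. RefSeq windows of the 250 bases before a transcription start (assembly GRCm38.p6) were at hand for 7 of the 10 members, in 10 windows. Those of Wnt5a, Wnt7b and Wnt10a were not used here. The motif was in 3 of the 10 member windows, 1 of Wnt2 and 2 of the 3 of Wnt5b, against 36.8% of all 32851 windows. The window of Wnt9a (chr11:59306680-59306929, plus strand) and that of Rspo1 (chr4:124986180-124986429, plus strand) are shown because these genes differed between the sorted populations. The window of Wnt2 (chr6:18030446-18030695, minus strand) is shown as a window that holds matches. Each runs 5′ to 3′ toward the start, and capitals mark matches.

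Wnt9a: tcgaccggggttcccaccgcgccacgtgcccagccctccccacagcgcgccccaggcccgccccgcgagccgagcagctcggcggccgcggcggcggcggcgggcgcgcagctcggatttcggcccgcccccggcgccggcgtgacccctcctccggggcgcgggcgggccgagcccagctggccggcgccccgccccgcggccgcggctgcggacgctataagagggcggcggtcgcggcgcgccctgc

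Rspo1: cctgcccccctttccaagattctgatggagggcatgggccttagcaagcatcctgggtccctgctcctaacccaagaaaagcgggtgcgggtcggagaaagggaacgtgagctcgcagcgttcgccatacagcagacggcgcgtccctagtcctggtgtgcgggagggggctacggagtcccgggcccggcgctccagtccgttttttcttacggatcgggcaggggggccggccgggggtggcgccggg

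Wnt2: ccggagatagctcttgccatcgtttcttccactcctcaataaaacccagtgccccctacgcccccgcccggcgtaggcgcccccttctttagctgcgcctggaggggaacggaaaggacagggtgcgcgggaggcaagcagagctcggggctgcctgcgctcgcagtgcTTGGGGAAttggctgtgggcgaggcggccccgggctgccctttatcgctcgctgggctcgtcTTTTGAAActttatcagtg

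The Wnt9a and Rspo1 windows held no match, and the Wnt2 window held TTGGGGAA 81 bases and TTTTGAAA 19 bases before the start. The Wnt9a window was 84.4% G and C with 48 CpG dinucleotides, the Rspo1 window 66.8% with 22 and the Wnt2 window 63.6% with 20. The medians over all windows were 52.4% and 6. A match describes letters in this window and is no measurement of binding.

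The arrays' own checks came first. Cebpb probe set 1418901_at read 11.95 and 12.25 in WT CD29hi cells, 11.83 and 12.18 in WT CD29lo cells, 8.60 and 9.38 in KO CD29hi cells, and 9.23 and 8.89 in KO CD29lo, as log2 signal. It was 8.63-fold lower in KO CD29hi and 7.70-fold lower in KO CD29lo, and in both well above the arrays' background. That background, the 95th percentile of 27 bacterial control probe sets, lay between 3.84 and 4.41. Of 12 basal and myoepithelial markers, 11 were called higher in CD29hi than in CD29lo of WT and 10 in KO. Of 10 luminal markers, 8 were called lower in CD29hi of each genotype. Their mean log2 signal in CD29hi was still 9.26 to 9.56, against 10.91 to 11.04 in CD29lo. Fibroblast markers were also measured: 15 of the 16 listed had a value, and 11 to 15 of these were above background on each array. Their mean log2 signal was 6.03 to 7.39 in the CD29hi arrays and 7.56 to 11.2 in the CD29lo arrays. Their summed log2 signal was 90.4 to 111 and 113 to 169, and none was at 0. In such bulk samples fewer cells of a type and less RNA per cell cannot be told apart.

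**Figure D1:**
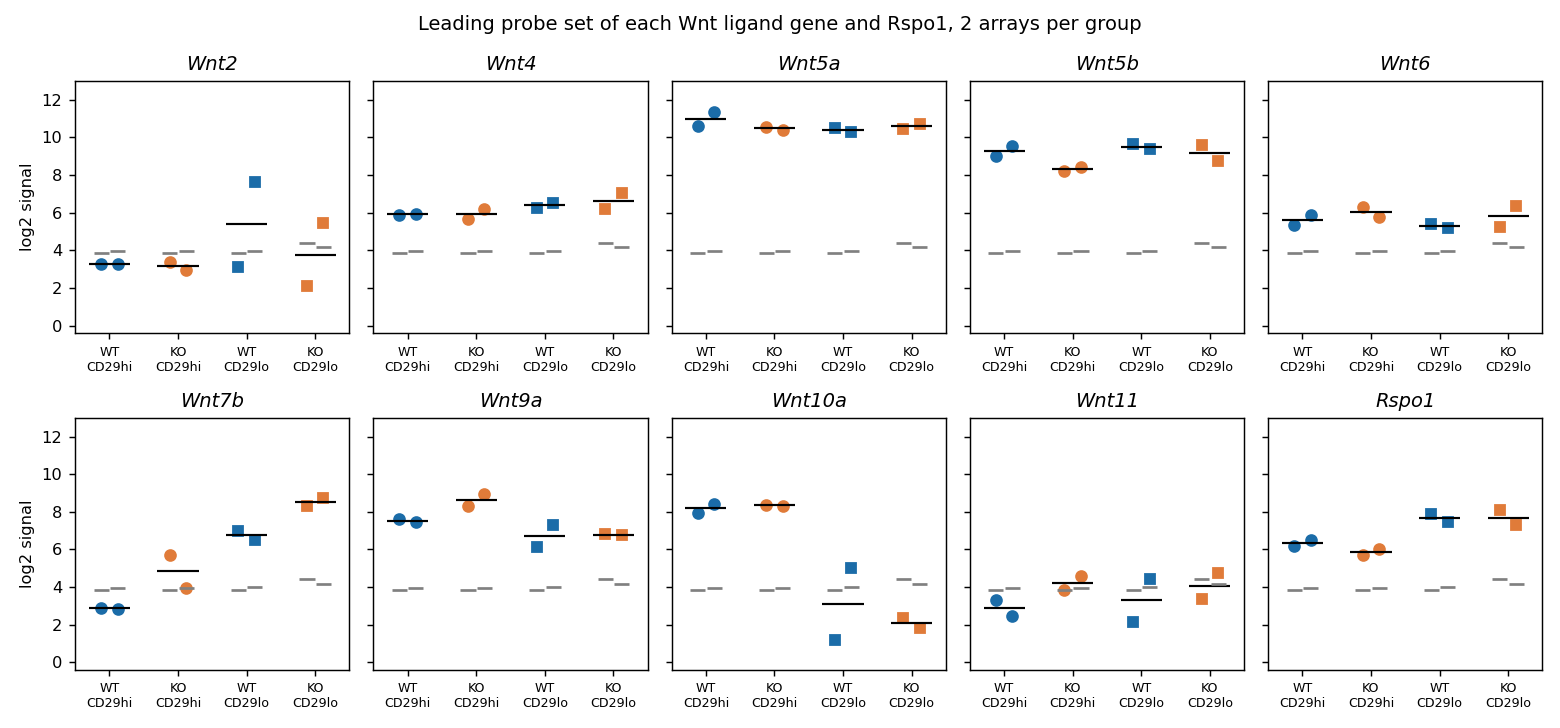
Log2 signal of the leading probe set of each member in each array (vertical axis) in the 4 groups. Blue marks are WT and orange marks KO, circles CD29hi and squares CD29lo, black lines the means of 2 arrays and grey ticks each array's background. Wnt10a is high in all 4 CD29hi arrays and Wnt7b in all 4 CD29lo arrays, while Wnt5a and Wnt5b stay far above the background throughout.

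Between the sorted populations, the ligands separated into genes higher in the CD29hi cells, genes higher in the CD29lo cells and genes near the same level in both. Wnt10a was higher in CD29hi cells of both genotypes and Wnt7b was higher in CD29lo cells of both. In KO, Wnt9a was also called higher in CD29hi and Rspo1 higher in CD29lo. A gene was called when its limma p, adjusted by Benjamini-Hochberg over all 14598 genes tested, was under 0.05. In WT, 1 of the 10 members was called higher in CD29hi, where 3.96% of all genes were, and 1 was called lower, where 4.23% were. In KO, 2 members were called higher, where 7.41% of all genes were, and 2 lower, where 6.66% were. The members' median difference, CD29hi minus CD29lo, was -0.33 in WT and -0.36 in KO, against 0 and 0.03 over all genes tested. The groups did not overlap for 3 members higher in WT CD29hi, where 26% of all genes did so, and for 3 lower, where 26% did so. In KO they did not overlap for 2 higher members, where 30.4% of all genes did so, and for 4 lower ones, where 26.8% did so. The no-overlap counts were near the shares of the whole array, and the calls came to 1 or 2 of 10 genes in a direction.

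**Figure D2:**
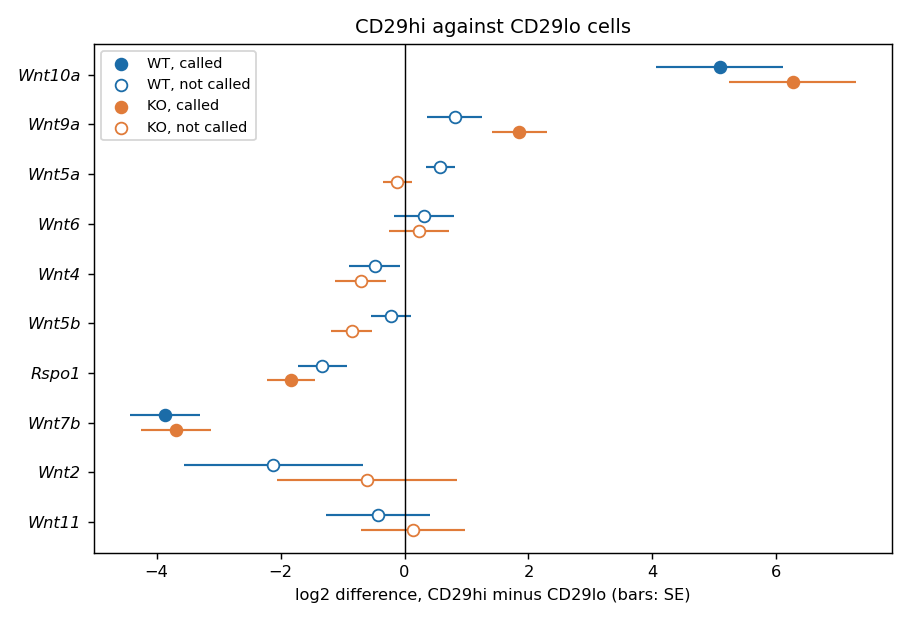
Log2 difference between CD29hi and CD29lo cells for each member (horizontal axis), with the standard error of the limma fit as bars. Filled points passed the threshold. Wnt10a lies far to the right and Wnt7b far to the left in both genotypes.

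Wnt10a, a ligand that drives beta-catenin signalling in skin appendages and teeth, had group means spanning 6.27 on the log2 scale, or 4.05 with each array raised to its background. For Wnt7b these spans were 5.64 and 4.63. The only probe set of Wnt10a, 1460657_at, read 7.94 and 8.41 in WT CD29hi cells and 8.36 and 8.32 in KO CD29hi. It read 1.17 and 5.01 in WT CD29lo cells and 2.34 and 1.81 in KO CD29lo. Every CD29hi array was above every CD29lo array, and among the latter only WT CD29lo replicate 2 was above its background. The difference was 5.09 ± 1.02 (SE) in WT (limma adjusted p = 0.0195) and 6.27 ± 1.02 in KO (limma adjusted p = 0.00594). In KO it amounted to at least 16.6-fold, a lower bound because both KO CD29lo arrays were set at their background. In WT it was at least 13.4-fold, with WT CD29lo replicate 1 set at its background. With 1 array left out the WT difference ran from 3.17 to 7.01. The WT call was lost without WT CD29hi replicate 1 (limma adjusted p = 0.0871) and without WT CD29hi replicate 2 (0.117). Over all 18 alternatives the adjusted p ran from 0.000778 to 0.117 in WT and from 0.000557 to 0.0449 in KO. The order of the group means was KO CD29hi, WT CD29hi, WT CD29lo, KO CD29lo, and only the middle pair of neighbours did not overlap.

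Wnt9a, known for its role in joint formation, had its highest signal in KO CD29hi. The leading probe set 1436978_at read 7.60 and 7.46 in WT CD29hi cells, 8.28 and 8.97 in KO CD29hi cells, 6.12 and 7.32 in WT CD29lo cells, and 6.81 and 6.74 in KO CD29lo. All CD29hi arrays were above all CD29lo arrays, the KO CD29hi arrays were above the WT CD29hi arrays, and the CD29lo groups overlapped. CD29hi exceeded CD29lo by 1.85 ± 0.44 in KO, which is 3.61-fold (limma adjusted p = 0.0279). In WT the difference was 0.81 ± 0.44 (limma adjusted p = 0.337). The difference between these 2 gate differences was 1.04 ± 0.63 and did not pass the test (limma adjusted p = 0.961 or more for every member). The KO call was lost when any of the 4 KO arrays was left out, with adjusted p from 0.0710 to 0.154. The other probe set, 1425889_at, lay between 4.16 and 4.74 on all 8 arrays, close to background, and gave -0.17 ± 0.45 for the same comparison. The call for Wnt9a therefore rests on a single probe set.

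Wnt7b, a ligand of the beta-catenin branch, was lowest in the basal WT cells. Probe set 1420891_at read 2.90 and 2.85 in WT CD29hi cells, 5.70 and 3.96 in KO CD29hi cells, 6.96 and 6.52 in WT CD29lo cells, and 8.32 and 8.71 in KO CD29lo. The order of the groups was KO CD29lo, WT CD29lo, KO CD29hi, WT CD29hi, and no neighbours overlapped. Both WT CD29hi arrays were below background. CD29lo exceeded CD29hi at least 7.22-fold in WT and 12.9-fold in KO. The fitted differences, CD29hi minus CD29lo, were -3.87 ± 0.57 in WT (limma adjusted p = 0.00529) and -3.69 ± 0.57 in KO (limma adjusted p = 0.00457). Leaving out any 1 array kept both calls, with adjusted p of at most 0.0441 in WT and 0.0240 in KO. The second probe set, 1420892_at, was above background on 3 arrays only and too dim to be tested. It read 0.86 and 2.37 in WT CD29hi cells, 2.20 and 2.99 in KO CD29hi cells, 4.79 and 3.24 in WT CD29lo cells, and 5.37 and 4.63 in KO CD29lo, so its CD29lo arrays were also higher in each genotype.

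Rspo1, a secreted amplifier of Wnt signals that is known as a luminal niche factor for mammary stem cells, was higher in CD29lo. Its only probe set, 1449319_at, read 6.16 and 6.52 in WT CD29hi cells, 5.68 and 6.01 in KO CD29hi cells, 7.87 and 7.46 in WT CD29lo cells, and 8.08 and 7.27 in KO CD29lo. All CD29lo arrays were above all CD29hi arrays, and the CD29lo groups overlapped. CD29hi minus CD29lo was -1.83 ± 0.39 in KO, 3.56-fold lower (limma adjusted p = 0.0182), and -1.33 ± 0.39 in WT, 2.51-fold lower and not called (limma adjusted p = 0.08295). The KO call was lost without KO CD29hi replicate 1 (limma adjusted p = 0.120), KO CD29hi replicate 2 (0.0600) and KO CD29lo replicate 1 (0.0819). Over its 19 alternatives the adjusted p ran from 0.0134 to 0.120.

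The fibroblast markers moved with the same comparison. Of the 15 tested, 8 were called lower in CD29hi than in CD29lo in WT and none higher, with a median difference of -4.82. In KO 4 were called lower and 1 higher, with a median of -3.06. With their mean as a covariate, an alternative fit, no member was called in WT, where Wnt7b gave -4.36 (limma adjusted p = 0.0543) and Wnt10a 6.55 (limma adjusted p = 0.0793), differences at least as large as without the covariate. All 4 members called in KO remained called in that fit. The CD29lo array with the lowest fibroblast mean (7.56), KO CD29lo replicate 1, read 2.34 for Wnt10a and 8.32 for Wnt7b, and the CD29hi array with the highest (7.39), KO CD29hi replicate 2, read 8.32 and 3.96. The other CD29lo arrays had fibroblast means of 9.40 to 11.2. Every CD29hi array had a lower fibroblast mean than every CD29lo array, so the covariate fit cannot separate fibroblast RNA from the gate. The part of these cells in the gate differences was not tested.

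**Figure D3:**
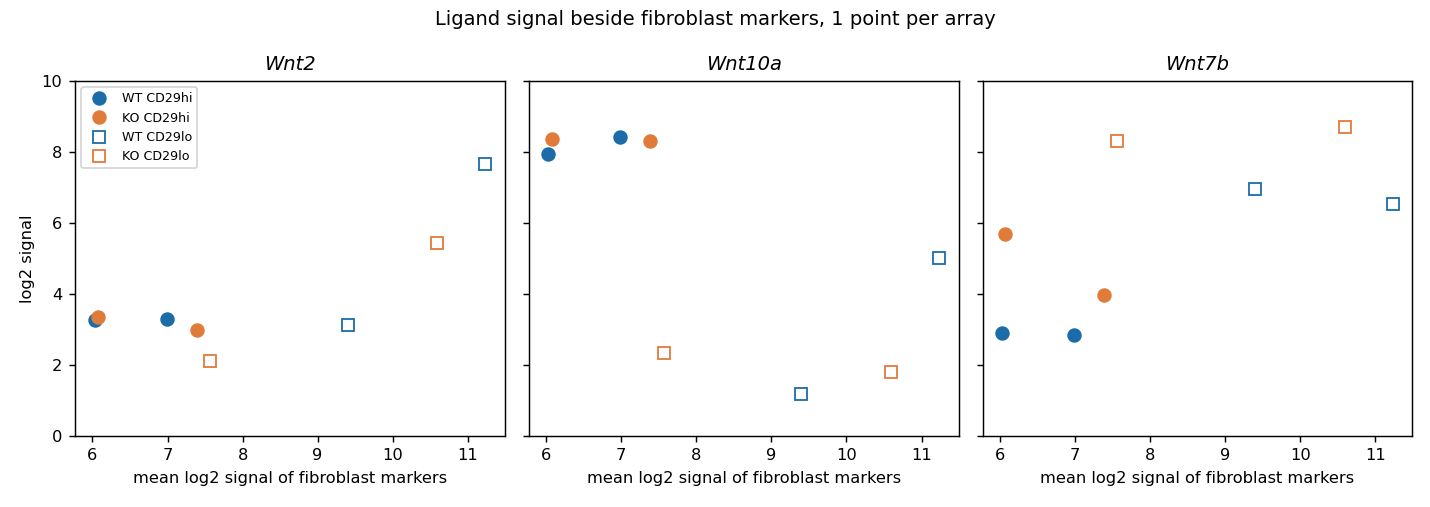
Log2 signal of Wnt2, Wnt10a and Wnt7b (vertical axis) against the mean log2 signal of 15 fibroblast markers (horizontal axis), 1 point per array, filled for CD29hi and open for CD29lo. Wnt2 is above 5 only in the CD29lo arrays with fibroblast means of 11.2 and 10.6. Wnt10a is at 7.94 or above in the CD29hi arrays and at 5.01 or below in the CD29lo arrays.

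Wnt2, a ligand known from mesenchymal tissue, was above background on 2 arrays only. It read 3.25 and 3.29 in WT CD29hi cells, 3.36 and 2.97 in KO CD29hi cells, 3.12 and 7.65 in WT CD29lo cells, and 2.10 and 5.44 in KO CD29lo. The high arrays were both CD29lo arrays numbered 2, the arrays with the highest fibroblast means (11.2 and 10.6), and the replicates of each CD29lo group disagreed by more than 3 log2 units. Pearson's r between Wnt2 and the fibroblast mean was 0.77 over the 8 arrays, which share their gates. The part of fibroblast RNA in the Wnt2 signal was not tested. No comparison of Wnt2 was called, with CD29hi minus CD29lo at -2.12 ± 1.45 in WT (limma adjusted p = 0.452) and -0.61 in KO (0.835). The gene whose signal followed Wnt2 most closely, of 14597 compared, was Bscl2 (r = 0.999 over 8 arrays), followed by Erc2 (0.967) and Sfrp2 (0.963). Sfrp2, a secreted Wnt antagonist, read 11.01 in WT CD29lo replicate 2 and 8.75 in KO CD29lo replicate 2, and 7.53 to 8.02 on the other arrays. These correlations rest on the same high arrays.

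Wnt5a and Wnt5b, closely related ligands that mostly signal without beta-catenin, were far above background on all arrays. Wnt5a probe set 1448818_at read 10.62 and 11.33 in WT CD29hi cells, 10.54 and 10.42 in KO CD29hi cells, 10.48 and 10.31 in WT CD29lo cells, and 10.45 and 10.74 in KO CD29lo. Its group means spanned 0.58 on the log2 scale, the narrowest range of the members. WT CD29hi was the highest group, above WT CD29lo on every array by all 4 Wnt5a probe sets. The difference was 0.58 ± 0.24 (limma adjusted p = 0.196) by the leading one and 1.19 ± 0.31 by probe set 1437673_at (limma adjusted p = 0.0573 over all probe sets). These probe sets measure the same RNA and are not independent. In KO the gates differed by -0.12 by the leading one (limma adjusted p = 0.803), by -0.005 by 1436791_at and by 0.11 by 1437673_at. By 1456976_at the difference was 0.86 ± 0.54 (limma adjusted p = 0.357 over all probe sets), and both KO CD29hi arrays were above both KO CD29lo arrays.

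Wnt5b probe set 1439373_x_at read 9.04 and 9.52 in WT CD29hi cells, 8.23 and 8.41 in KO CD29hi cells, 9.65 and 9.36 in WT CD29lo cells, and 9.59 and 8.76 in KO CD29lo. By this probe set KO CD29hi was the lowest group and overlapped none of the others. Between the gates of KO the difference was -0.86 ± 0.32 (limma adjusted p = 0.120), and without KO CD29lo replicate 2 it was -1.27. By the other probe set, 1422602_a_at, above background on all 8 arrays, KO CD29hi (5.40 and 6.02) overlapped KO CD29lo (6.48 and 5.66). It gave -0.36 ± 0.48 between the KO gates (limma adjusted p = 0.690 over all probe sets). Between the WT gates it gave 0.34 ± 0.48, where the leading one gave -0.23.

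Wnt4 and Wnt6 were moderately above background by their leading probe sets. Wnt4 1450782_at read 5.90 and 5.92 in WT CD29hi cells, 5.67 and 6.17 in KO CD29hi cells, 6.26 and 6.52 in WT CD29lo cells, and 6.19 and 7.06 in KO CD29lo. All CD29lo arrays were above all CD29hi arrays, but no difference passed the test, with -0.48 in WT (limma adjusted p = 0.559) and -0.71 ± 0.41 in KO (0.306). The other Wnt4 probe set, 1441687_at, disagreed in size. It read 3.19 and 5.42 in WT CD29hi cells, 3.05 and 2.27 in KO CD29hi cells, 5.02 and 5.10 in WT CD29lo cells, and 5.45 and 6.18 in KO CD29lo. It gave -3.16 ± 0.73 between the KO gates (limma adjusted p = 0.0254 over all probe sets), with both KO CD29hi arrays below background. Wnt4 was the member that followed the fibroblast mean most closely (r = 0.87 over 8 arrays), and the part of these cells in its gate difference was not tested.

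Wnt6 1419708_at read 5.35 and 5.89 in WT CD29hi cells, 6.31 and 5.77 in KO CD29hi cells, 5.42 and 5.20 in WT CD29lo cells, and 5.26 and 6.36 in KO CD29lo. By this probe set all neighbouring groups overlapped, and no difference was called. The other Wnt6 probe set, 1435980_x_at, read 4.76 and 4.90 in WT CD29hi and was below background in WT CD29lo. It gave 1.93 ± 0.50 between the WT gates (limma adjusted p = 0.0544 over all probe sets) and -0.44 ± 0.50 between the KO gates. The neighbour of Wnt6 on chromosome 1 is Wnt10a, in the order of assembly GRCm38.p6, which separated the gates as described above.

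Wnt11, known from branching of the kidney, stayed at or near background. Probe set 1450772_at read 3.29 and 2.46 in WT CD29hi cells, 3.86 and 4.56 in KO CD29hi cells, 2.16 and 4.45 in WT CD29lo cells, and 3.37 and 4.77 in KO CD29lo. It was above background on 4 of the 8 arrays, both of KO CD29hi among them and neither of WT CD29hi. KO CD29hi replicate 1 was barely above its background of 3.854.

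For the members that varied most, the genes with the most similar signal over the 8 arrays were also sought. Wnt10a was followed by Bok (r = 0.998), Fer (0.995) and Ahi1 (0.993). Wnt7b was followed by Slc25a24 (r = 0.975), Smim31 (0.974) and Tnk2 (0.973), and Wnt9a by Taf10 (r = 0.982), Cbx2 (0.979) and Nrip1 (0.976). All of these are correlations over the same 8 arrays, chosen as the highest of 14597, and they share the split between the gates.

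Between the genotypes, no member passed the test. In CD29hi 0 of 10 members were called, where 0.0137% of all genes were. In CD29lo 0 were called, where 0.0137% of all genes were, and averaged over both populations 0 were called, where 0.0685% were. The genotype differences of the populations were not shown to differ from each other either, with 0 members and 0% of all genes called for the interaction. At an unadjusted limma p under 0.05 there were 3 members in CD29hi (1145 of all genes), 1 in CD29lo (975), 2 in the average (1353) and 0 for the interaction (722). The median KO minus WT difference of the members was 0.09 in CD29hi and 0.13 in CD29lo, beside -0.02 and -0.06 over all genes. The KO and WT arrays did not overlap in CD29hi for 3 members higher in KO, where 18.3% of all genes did so, and for 3 lower, where 21.2% did so. In CD29lo they did not overlap for 1 higher member, where 14.7% of all genes did so, and for 0 lower, where 19.6% did so.

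**Figure D4:**
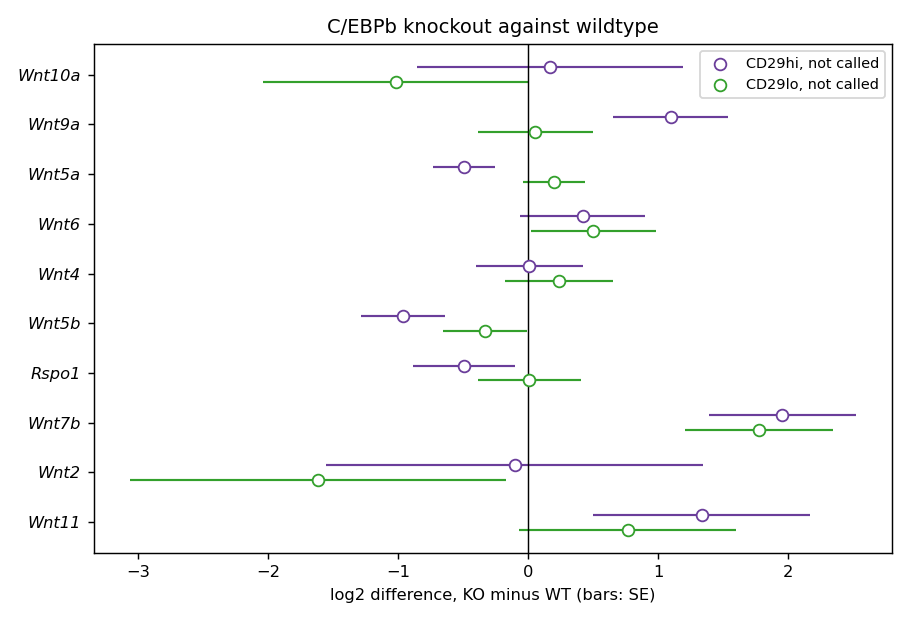
Log2 difference between KO and WT for each member (horizontal axis) in CD29hi and CD29lo cells, with the standard error of the limma fit as bars. All points are open, since none passed the threshold. Wnt7b lies to the right of 0 in both populations, with WT CD29hi arrays below background.

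Wnt7b was higher in the KO than in the WT arrays of both populations by its leading probe set, without passing the test. The second, 1420892_at, too dim to be tested, overlapped between the genotypes in both populations. By the leading one the difference was 1.96 ± 0.57 among CD29hi cells (limma adjusted p = 0.424) and 1.78 ± 0.57 among CD29lo cells (0.658). In CD29lo the KO arrays (8.32 and 8.71) were 3.42-fold above the WT arrays (6.96 and 6.52). In CD29hi the KO mean was at least 1.92-fold above WT, whose arrays were below background, so the 1.96 there is not a measured size. KO CD29hi replicate 2 (3.96) was near its own background of 3.936, so that bound rests on KO CD29hi replicate 1 (5.70). Averaged over the populations the difference was 1.87 ± 0.40, the 96th smallest p of all genes tested (limma adjusted p = 0.227). This average, too, uses the WT CD29hi values below background. With arrays raised to their background the differences were 0.941 in CD29hi and 1.775 in CD29lo. No alternative brought that average under the threshold, with adjusted p from 0.146 to 0.557 over 19 of them.

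In CD29hi, Wnt9a was 2.14-fold higher in KO by its leading probe set (1.10 ± 0.44, limma adjusted p = 0.614). Its other probe set, 1425889_at, gave 0.205 ± 0.45 with overlapping arrays. The group mean of Wnt11 was at least 1.25-fold higher in KO (1.34 ± 0.83, limma adjusted p = 0.798). That bound rests on KO CD29hi replicate 2 (4.56). KO CD29hi replicate 1 (3.86) was at its background of 3.854 and under that of WT CD29hi replicate 2 (3.943). Both WT CD29hi arrays of Wnt11 were below background, so the 1.34 is not a measured size. With arrays raised to their background it was 0.321. Wnt5b was 1.95-fold lower in KO, by -0.96 ± 0.32 (limma adjusted p = 0.516), and its second probe set 1422602_a_at gave -1.20 ± 0.48 (0.638 over all probe sets). Wnt5a was 1.41-fold lower, by -0.50 ± 0.24 (limma adjusted p = 0.692). All 4 of its probe sets and both of Wnt5b had KO CD29hi arrays below WT CD29hi arrays. Rspo1 was 1.41-fold lower (limma adjusted p = 0.859). For these 5 genes the deposited values of the genotypes did not overlap by the leading probe sets, and none of the differences passed the test. With arrays raised to their background, those of Wnt11 overlapped.

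In CD29lo the KO and WT arrays of the same genes overlapped by their leading probe sets. By the other Wnt9a probe set, 1425889_at, the KO arrays were above the WT arrays there, by 0.315 ± 0.45. The CD29lo differences by the leading probe sets were 0.06 for Wnt9a, 0.01 for Rspo1, 0.20 for Wnt5a, -0.33 for Wnt5b and 0.77 for Wnt11. Wnt11 was above background there on 1 array of each genotype. Wnt10a, far below background in KO CD29lo, allowed no fold between the genotypes there, and its CD29hi arrays overlapped. Wnt4 and Wnt6 also overlapped between the genotypes in both populations by their leading probe sets.

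Among marker lists of other cells, the luminal progenitor and alveolar markers differed in mean signal between the genotypes, with few markers called. The mean log2 signal of 11 luminal progenitor and alveolar markers was 7.31 and 7.54 in WT CD29hi cells and 5.40 and 6.16 in KO CD29hi. All 11 were below 0 in KO minus WT there, with a median of -1.78 and 0 called. In CD29lo the mean was 8.79 and 8.89 in WT and 7.85 and 7.82 in KO. The milk protein genes Csn2 (-4.88) and Csn1s1 (-5.45, the 1 marker called) carried most of that gap, and the median was -0.13 with 5 of 11 above 0, beside -0.06 over all genes. All 15 fibroblast markers were below 0 in KO minus WT in CD29lo, with a median of -1.26 and 0 called, and 7 of 15 in CD29hi, with a median of 0.09. Their means overlapped between the genotypes in both populations. In CD29lo they were 9.40 and 11.2 in WT and 7.56 and 10.6 in KO. The part of these cells in the genotype differences of ligands and antagonists was not tested.

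The remaining Wnt and R-spondin genes had a mean log2 signal of 3.61 to 4.32 per array, against 5.92 to 6.98 for the members. Of the 13 with a value, 8 were bright enough to be tested, and none was called in any comparison. Wnt1, Wnt3, Wnt7a and Wnt10b were above background on no array. Wnt2b, Wnt3a, Wnt8b and Rspo4 were above it on all 8, and Rspo4 ranged from 6.57 to 7.27.

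Among the secreted antagonists, Wif1 differed between the genotypes in CD29hi cells when tested without the filter on dim genes. Wif1 encodes a secreted inhibitor that binds Wnt ligands directly. Its probe set 1425425_a_at read 7.60 and 8.92 in WT CD29hi cells and 1.05 and 0.67 in KO CD29hi. It read 3.61 and 4.03 in WT CD29lo cells and 0.00 and 0.38 in KO CD29lo. WT CD29hi was well above background, WT CD29lo was above it on 1 array, and KO was above it on none. KO CD29hi was at least 20.6-fold lower than WT CD29hi. Wif1 had a mean of 3.28 over the 8 arrays and so fell under the filter of 3.51 for testing. It was singled out after its values were seen, and tested without the filter, an alternative added then. KO minus WT among CD29hi cells was -7.40 ± 0.61 on the deposited values (limma adjusted p = 0.00989), whose size depends on KO values below background. With values raised to 4 it was -4.26 and no longer called (limma adjusted p = 0.111). Among CD29lo cells, where most values were below background, it was -3.63 ± 0.61 on the deposited values (limma adjusted p = 0.308) and -0.02 with values raised to 4. The CD29hi call was also lost without WT CD29hi replicate 1 (0.0669), WT CD29hi replicate 2 (0.211), KO CD29hi replicate 1 (0.0635) or KO CD29hi replicate 2 (0.106). Under its other settings the adjusted p ran from 0.00944 to 0.0445.

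**Figure D5:**
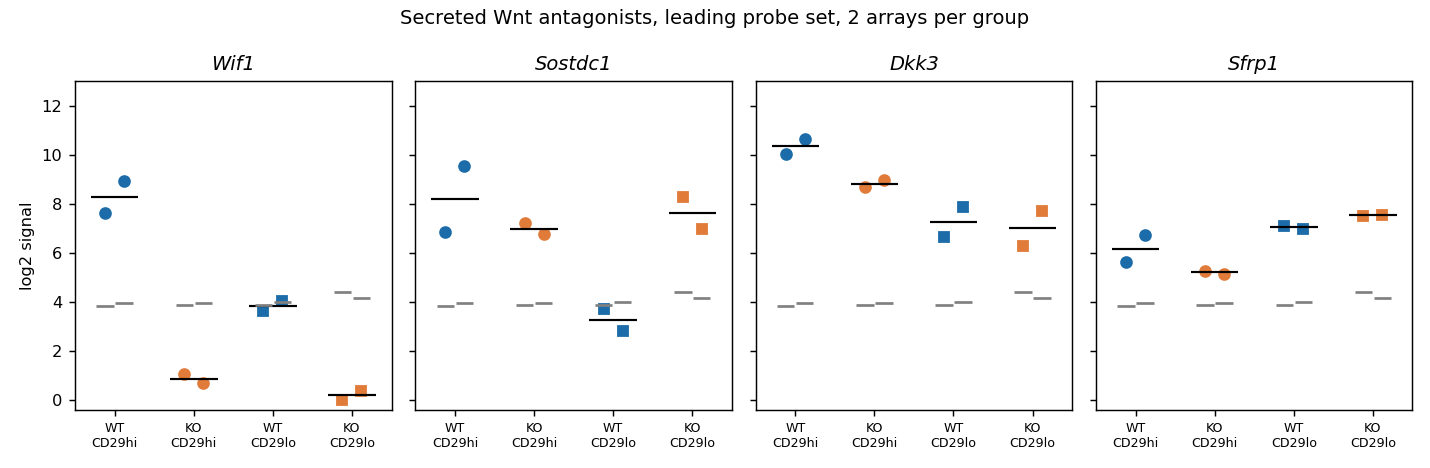
Log2 signal of 4 secreted Wnt antagonists (vertical axis) in the 4 groups, with marks, mean lines and background ticks as in the plot of the members. Wif1 lies far above background in WT CD29hi only, and the leading probe set of Sostdc1 is below background in WT CD29lo only.

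Sostdc1, which inhibits both Wnt and BMP signals, showed another order. Probe set 1449340_at read 6.83 and 9.55 in WT CD29hi cells, 7.20 and 6.76 in KO CD29hi cells, 3.72 and 2.81 in WT CD29lo cells, and 8.27 and 6.96 in KO CD29lo. WT CD29lo was the only group below background by this probe set. WT CD29hi was at least 19.3-fold higher than WT CD29lo, a called difference (4.93 ± 0.84, limma adjusted p = 0.0104). KO CD29lo was at least 12.9-fold higher than WT CD29lo, with 4.35 ± 0.84 and no call (limma adjusted p = 0.334). Its second probe set, 1460250_at, was above background on all 8 arrays and showed smaller differences. It read 5.99 and 7.19 in WT CD29hi cells, 5.44 and 5.92 in WT CD29lo cells and 6.73 and 5.91 in KO CD29lo. By it the CD29lo genotypes overlapped.

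Dkk3, a member of the Dickkopf family, read 10.02 and 10.65 in WT CD29hi cells, 8.66 and 8.96 in KO CD29hi cells, 6.66 and 7.87 in WT CD29lo cells, and 6.28 and 7.71 in KO CD29lo. It was 8.40-fold higher in CD29hi than in CD29lo of WT (limma adjusted p = 0.0119). Its KO CD29hi arrays lay below the WT CD29hi arrays by -1.53 ± 0.55, which was not called (limma adjusted p = 0.539). Sfrp1, which sequesters Wnt proteins, was lower in CD29hi than in CD29lo of KO by -2.32 ± 0.42 (limma adjusted p = 0.00895). Of the 11 antagonists tested, 2 were called higher in CD29hi of WT and 0 lower, where 3.96% and 4.23% of all genes were. Their median difference was -0.13 beside 0 over all genes. In KO 0 were called higher and 1 lower, where 7.41% and 6.66% of all genes were, with a median of -0.64 beside 0.03.

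The receptors had a median above that of all genes between the gates. Of 19 tested, 5 were called higher in CD29hi and 0 lower in each genotype, where 3.96% (WT) and 7.41% (KO) of all genes were called higher. The median differences were 1.17 in WT and 0.75 in KO, beside 0 and 0.03 over all genes. The Frizzled receptors Fzd2, Fzd3 and Fzd7 and the Wnt co-receptor Ptk7 were called in both. Fzd7 read 11.78 and 12.15 in WT CD29hi cells, 12.03 and 11.65 in KO CD29hi cells, 10.71 and 10.55 in WT CD29lo cells, and 10.68 and 10.23 in KO CD29lo. Lgr5, a receptor for R-spondins, was called in WT (2.92 ± 0.67, limma adjusted p = 0.0321) and read 6.17 and 6.12 in WT CD29hi against 2.60 and 3.86 in WT CD29lo. Both WT CD29lo arrays were below background for Lgr5, so the 2.92 is not a measured size. Lrp6, the co-receptor for the beta-catenin branch, was called in KO (0.40 ± 0.11, limma adjusted p = 0.0431).

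Of 8 tested genes that process or carry the ligands, 1 was called. It was Gpc4, a cell surface proteoglycan, higher in CD29hi of WT (1.02 ± 0.18, limma adjusted p = 0.0129) and of KO (0.77 ± 0.18, 0.0286). Gpc3, a related proteoglycan, gave -2.24 ± 0.97 between the WT gates (limma adjusted p = 0.226), and Porcn, which acylates Wnt proteins, 1.44 ± 0.87 (0.391). Wls, which carries Wnt proteins to the cell surface, read 8.10 and 8.93 in WT CD29hi cells and 7.40 and 7.65 in KO CD29hi, -0.99 ± 0.35 and not called (limma adjusted p = 0.539). Of 18 intracellular transducers, none was called between the gates of WT and only Pygo1, a beta-catenin co-activator, in KO (2.73 ± 0.74, limma adjusted p = 0.0433). Beside these counts, 3.96% of all genes were called higher and 4.23% lower in CD29hi of WT, and 7.41% and 6.66% in KO.

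Of 14 pathway targets tested, 3 were called higher in CD29hi of WT (Rnf43, Jag1 and Id4) and 0 lower, with a median of 0.74 beside 0 over all genes, of which 3.96% were called higher. In KO 5 were called higher (the same 3 with Znrf3 and Tnfrsf19) and 0 lower, with a median of 1.18 beside 0.03 over all genes, of which 7.41% were called higher. Rnf43, the ligase that R-spondins counter, read 7.75 and 7.79 in WT CD29hi cells, 8.12 and 8.18 in KO CD29hi cells, 6.16 and 5.95 in WT CD29lo cells, and 6.23 and 6.26 in KO CD29lo. Id4 and Jag1 are also known as basal cell genes. Axin2, a general target of beta-catenin signalling, was not called between the gates and overlapped between the genotypes in CD29hi and in CD29lo.

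Between the genotypes, no tested gene of the 6 pathway lists was called in either population, in their average or for the interaction. The smallest p among receptors and targets in the average belonged to Fzd1 (-1.0 ± 0.23, limma adjusted p = 0.250) and Ccnd1, the gene of cyclin D1 (0.60 ± 0.13, limma adjusted p = 0.228). Ccnd1 read 10.51 and 10.13 in WT CD29hi cells and 11.36 and 11.03 in KO CD29hi, and these arrays did not overlap.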

How the data were processed

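Expression was measured on 8 arrays, 2 per group. The authors deposited 1 log2 value per probe set and array. The log2 scale and the scaling between arrays were read from the values (0 to 14.42, array medians 5.45 to 5.67). Their normalization is not given in the sources used here, and none was added. Genes were named from the platform's annotation table, and per gene the probe set of highest mean led. Genes under the 25th percentile of probe set means (3.51) were not tested, leaving 14598 of 18194. All 4 groups were fitted with limma 3.58.1 in R 4.3.3 (lmFit, eBayes with a trend, 4 residual degrees of freedom), two-sided, with Benjamini-Hochberg adjustment and a threshold of 0.05. Python 3.11.15 with matplotlib 3.10.9 drew the figures. Precision is limited by 2 arrays per group. Where arrays of the lower group were at or below background, the background stood in for them and the fold is a lower bound. Named were all members, the listed pathway genes past the threshold or among the 2 smallest p of a comparison (a selection is given), and for the 4 members with the widest range of deposited group means the 3 most correlated genes. Some genes are named for context outside that rule, chosen after their values were seen: Wif1, Axin2 and the Wnt and R-spondin genes outside the 10 members. The fit was tested on simulated data. Members and lists were chosen with earlier results of these data known. Alternatives were other normalization, filters, probe set rules, variance models, blocks, covariate and arrays left out.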

Additional observations from a re-analysis of the deposited data

Results flagged for a closer look

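For a pair of secondary probe sets, the arrays of the genotypes moved in opposite directions in the sorted populations, and the difference had an unadjusted limma p under 0.05. The Wnt6 probe set 1435980_x_at gave KO minus WT of -1.52 in CD29hi and 0.85 in CD29lo, an interaction of -2.37 (limma adjusted p = 0.971 over all probe sets). It read 4.76 and 4.90 in WT CD29hi cells, 3.52 and 3.11 in KO CD29hi cells, 3.0 and 2.81 in WT CD29lo cells, and 3.81 and 3.70 in KO CD29lo, and only the WT CD29hi arrays were above background. The Wnt4 probe set 1441687_at gave -1.65 in CD29hi and 0.76 in CD29lo, an interaction of -2.40 (limma adjusted p = 0.971). Neither passed the adjustment. The leading probe sets gave interactions of -0.08 for Wnt6 and -0.23 for Wnt4.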

How the results depend on the processing

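No member was called between the genotypes, or for the interaction, under any of the 19 alternatives. Between the gates of WT the count of 2 called members became 1 with a filter at the 50th percentile, which leaves Wnt2, Wnt10a and Wnt11 untested, 1 without a variance trend and 0 with the fibroblast covariate, where the differences were -4.36 for Wnt7b and 6.55 for Wnt10a. It ranged from 1 to 2 with 1 array left out. In KO the count of 4 stayed at 3 or 4 and ranged from 2 to 4 with 1 array left out, at 2 without KO CD29hi replicate 1, KO CD29hi replicate 2 or KO CD29lo replicate 1. No called member changed direction. Wnt9a in KO was lost with the mean of its probe sets (0.84, limma adjusted p = 0.139) and without a trend (0.05005). Wnt4 in KO was called with the mean of its probe sets (-1.93, limma adjusted p = 0.0305). Rspo1 in KO was lost without KO CD29lo replicate 1 and WT CD29lo replicate 2 together, the CD29lo arrays that stand apart (limma adjusted p = 0.0861). Over all genes the WT count of 1196 fell to 785 without a trend and 433 with the covariate, and ranged from 512 to 1383 with 1 array left out. The KO count of 2053 ranged from 722 to 1913. The genotype counts of 2, 2 and 10 lay between 0 and 4, 0 and 7, and 2 and 16 over the other settings. With 1 array left out they lay between 0 and 3, 0 and 2, and 3 and 21, the last without KO CD29lo replicate 2. With the replicate block the member counts were 0 between the genotypes, 2 in WT and 4 in KO, and the genotype counts over all genes 3, 3 and 16. In the main fit the arrays were treated as independent and the replicate numbers not as pairing, since replicate differences correlated by 0.0056 to 0.321 between groups. Another alternative took arrays of the same genotype and replicate number as 1 pool of glands, a random block. Its consensus correlation within pools was 0.0172, and the member counts were 2 in WT and 4 in KO. The causes of these changes were not tested. Wif1 without the filter kept its CD29hi call with the replicate block (limma adjusted p = 0.00944). Members near background, Wnt2, Wnt11 and the low groups of Wnt7b and Wnt10a, are limited by signal over background.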
